A study of Homo sapiens with 12 samples.

Results

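Transcript levels of 10 aldehyde dehydrogenase genes were followed in 12 RNA sequencing libraries of HT29, a human colon carcinoma line. The genes are ALDH1A1, ALDH1A2, ALDH1A3, ALDH1B1, ALDH2, ALDH3A1, ALDH3A2, ALDH5A1, ALDH6A1 and ALDH1L1. They were taken by name, as the ALDH1A enzymes that CM10 inhibits and related members of the family, from the 18665 genes that each of the 2 deposited tables lists. All 10 were present in both tables, and the tables held 9 further aldehyde dehydrogenases. The libraries fall into 4 groups of 3. For the CM10 group, the study describes HT29 cells exposed to CM10, a small-molecule inhibitor of ALDH1A enzymes. CTRL_CM10 is the control group sequenced with it. The shZBTB7B group is described as a stable HT29 line with a short hairpin RNA against ZBTB7B, a zinc finger transcription factor. It has CTRL_shZBTB7B as its control group. The labels give no dose, exposure time or vehicle, although the study describes a single dose and a short exposure. They do not say how many hairpins or clones the line stands for, and do not say what the control cells carry. No source states that replicates were grown as separate cultures. The p-values therefore rest on library-to-library spread alone, and that spread may be technical.

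Aldehyde dehydrogenases oxidise reactive aldehydes to carboxylic acids with NAD or NADP as cofactor. The ALDH1A enzymes turn retinaldehyde into retinoic acid, the ligand of the retinoic acid receptors, and ALDH1A1 activity is widely used to mark stem-like cells in colon and other carcinomas. Other members clear acetaldehyde or fatty aldehydes, or carry out a fixed step in the breakdown of amino acids, GABA or folate.

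Levels are in TPM, transcript abundances that are scaled for transcript length and to the same total in every library. They carry no sequencing depth, so the depth is unknown and no interval from counting can be given. Fold changes are on the log2(TPM + 1) scale, on which changes of weakly expressed genes come out too small. A gene was tested if 3 or more of the 6 libraries in the table reached 1 TPM, and was called at a limma adjusted p under 0.05. In bulk RNA, fewer cells of a type and less RNA per cell cannot be told apart.

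The libraries of the series differed widely among themselves. Between 8493 and 13051 genes were above 0 in CM10 libraries and between 13237 and 14627 in their controls. In shZBTB7B libraries the number was 9597 to 14354, against 15969 to 16245 in their controls. The knockdown target ZBTB7B was at 2.55, 5.97 and 0 TPM in shZBTB7B replicates 1 to 3 and at 22.34, 25.06 and 25.36 TPM in CTRL_shZBTB7B, lower in every hairpin library (log2 fold change −3.11, SE 0.93, limma adjusted p = 0.05798, not called). The labels name HT29, while their extraction protocol speaks of tissue samples. Markers of colon epithelium were uneven, and markers of other tissues were high in some libraries. PGA3, a gastric chief cell gene, was at 32673 TPM in CTRL_CM10 replicate 3. DES, a smooth muscle gene, was at 16958 TPM in CTRL_shZBTB7B replicate 2. Whether the libraries hold HT29 cells alone was not tested. CDX2, the intestinal master regulator, was at 0 in 8 of 12 libraries and reached at most 5.32 TPM. The summed level of 11 colon epithelial markers ran from 17.69 to 2347 TPM. By contrast, 8 genes of gastric chief and parietal cells summed to 0 to 83624 TPM, 6 genes of gastric surface and neck cells to 0 to 10410 TPM, and 6 smooth muscle genes to 50.74 to 66288 TPM. Sums for 8 genes of fibroblasts and endothelium ran from 24.72 to 6066 TPM. For 5 genes of myeloid cells and other leukocytes they ran from 71.11 to 4582 TPM, and for 4 of T cells from 6.98 to 952.3 TPM. They ran from 0 to 5930 TPM for 4 genes of erythroid cells and from 0 to 241.5 TPM for 5 hepatocyte genes. Some sums rest on 1 gene. In CM10 replicate 3 the leukocyte sum was LYZ alone (3408 TPM), with 4 genes at 0. The T cell sum of that library was CD3G alone (39.43 TPM), with 3 genes at 0. shZBTB7B replicate 2 stood apart from the other 2 libraries of its group in many of the values below, so several of those results are also given without it.

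One sequence feature divides the 10 genes. A search of protein-coding transcripts of the GENCODE annotation on GRCh37 looked for stretches of 24 bases that recur, on either strand, in the transcripts of at least 100 genes. ALDH1B1, ALDH2, ALDH3A2, ALDH5A1 and ALDH6A1 hold such a high-copy stretch in the 3′ UTR of the main annotated transcript. ALDH1A1, ALDH1A2, ALDH1A3, ALDH1L1 and ALDH3A1 hold none. Among 17951 genes searched, 5553 (30.93%) hold one. A read that lies within such a stretch can match many genes, so the TPM of a gene that holds one may be uncertain. How reads from these stretches were assigned was not tested. Every member that rose in the CM10 libraries holds such a stretch. In the main transcript a high-copy stretch starts at 382 positions in ALDH2, 251 in ALDH6A1, 61 in ALDH1B1, 51 in ALDH5A1 and 25 in ALDH3A2. Over all annotated transcripts the number of distinct stretches was 307 in ALDH2, 263 in ALDH6A1, 61 in ALDH1B1, 59 in ALDH3A2 and 51 in ALDH5A1. The genes that hold a stretch also have long 3′ UTRs, 1362 bases in ALDH1B1, 2027 in ALDH3A2, 3498 in ALDH5A1, 3798 in ALDH6A1 and 7960 in ALDH2. In the other 5 the 3′ UTR measured 224 (ALDH1L1), 235 (ALDH3A1), 540 (ALDH1A1), 1771 (ALDH1A2) and 1856 (ALDH1A3) bases, so the lengths overlap between the sets.

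Genes with a high-copy stretch took 76.42%, 77.28% and 81.85% of all TPM in CM10 replicates 1 to 3 and 29.11%, 6.38% and 14.62% in CTRL_CM10. In shZBTB7B replicates 1 to 3 they took 70.34%, 17.04% and 64.72%, and in CTRL_shZBTB7B 22.43%, 24.61% and 23.11%. The treated libraries were thus high in this share with the exception of shZBTB7B replicate 2, which lay below its controls. Because TPM has a fixed total, a larger share for these genes leaves less for all others in the same library. The MTRNR2L genes, near-copies of mitochondrial ribosomal RNA, shifted the composition as well. Their share was 5.62%, 73.82% and 45.98% in the 3 CTRL_CM10 libraries and 0.71%, 2.78% and 0.28% in CM10. They also took 29.9% in shZBTB7B replicate 2, against 0.31% and 0.91% in replicates 1 and 3 and 2.44% to 10.41% in CTRL_shZBTB7B.

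The first question was what exposure to CM10, which acts on the ALDH1A enzymes, left of the transcripts of these genes. Of the 8 members tested, 4 rose, 1 fell and 3 were not called. ALDH1A1 fell, and ALDH1B1, ALDH2, ALDH5A1 and ALDH6A1 rose. Of all 12529 genes tested, 31.9% were called, 13.6% as higher and 18.3% as lower, so calls were common in this comparison. The median log2 fold change of the 8 members was 1.43, and that of all genes tested was −1.004. Every fold change below can be read against that shift. ALDH1A2 and ALDH1L1 did not reach the level required for testing.

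**Figure D1:**
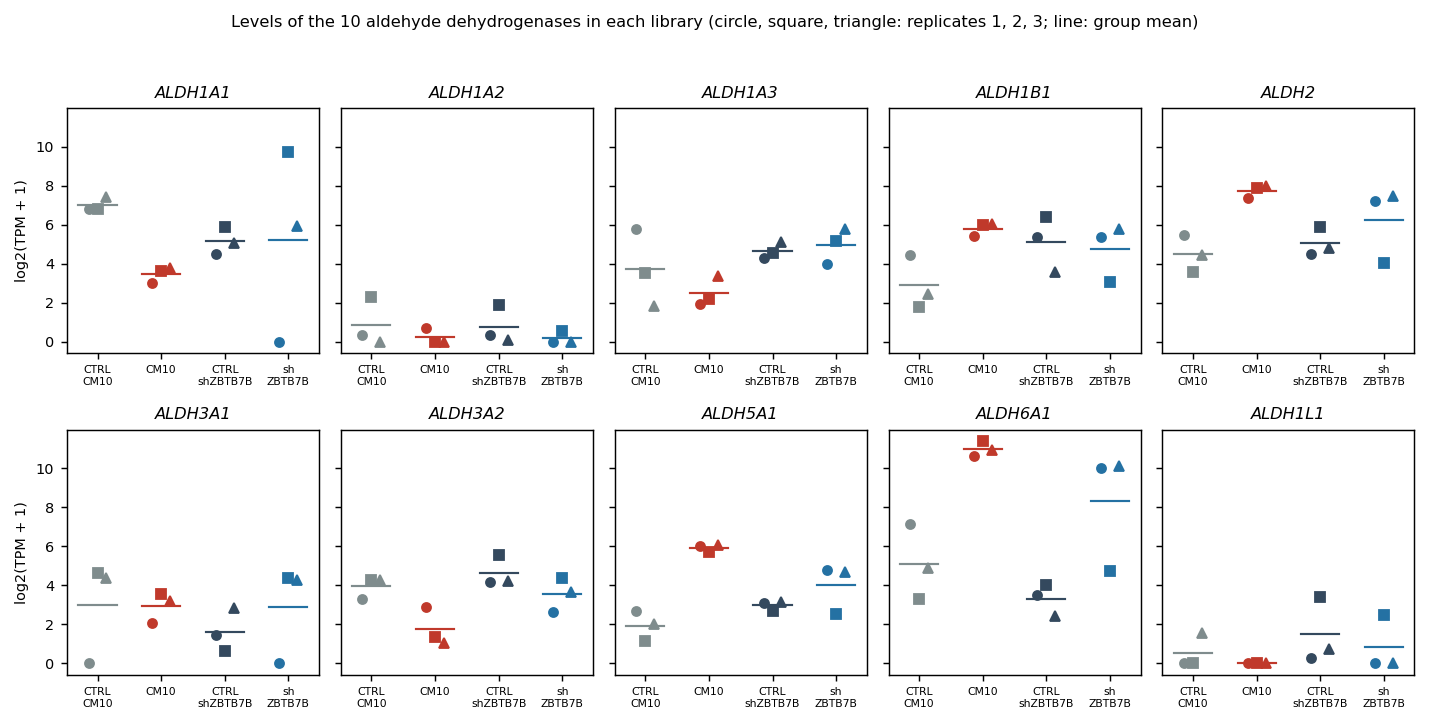
Level of each of the 10 aldehyde dehydrogenases, as log2(TPM + 1) on the vertical axis, in the 3 libraries of each of the 4 groups (circle, square and triangle for replicates 1, 2 and 3, line for the group mean). The 3 CM10 libraries lie above their controls for ALDH1B1, ALDH2, ALDH5A1 and ALDH6A1 and below them for ALDH1A1 and ALDH3A2, and shZBTB7B replicate 2 (square) lies apart for ALDH1A1, ALDH2, ALDH5A1 and ALDH6A1.

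ALDH1A1, the cytosolic retinaldehyde dehydrogenase on chromosome 9 (GRCh37, 75515587 to 75695358, minus strand), was the most abundant member in CTRL_CM10. It stood at 110.1, 110.2 and 172.0 TPM in CTRL_CM10 replicates 1 to 3 and at 6.95, 11.14 and 12.67 TPM in CM10 replicates 1 to 3. The highest CM10 library lay far below the lowest control. The mean fell from 130.8 ± 35.7 TPM to 10.3 ± 2.96 TPM (SD, n = 3 each), a log2 fold change of −3.55 (SE 0.93, limma adjusted p = 0.01074). Relative to the median of all genes tested the change was −2.55. ALDH1A1 was not called without CM10 replicate 2 (−3.63, adjusted p = 0.06201) or without CTRL_CM10 replicate 3 (−3.34, adjusted p = 0.05609), fits in which 13.8% and 10% of all genes were called. When TPM was rescaled after leaving out all genes with a high-copy stretch, its fold change was −1.71 (adjusted p = 0.4743), still negative but not called. When TPM was rescaled without the MTRNR2L genes it was −4.50 (adjusted p = 0.004204), in a fit that called 54.9% of all genes. The part of either shift in composition in the level of ALDH1A1 was not tested.

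ALDH1A3, the second retinaldehyde dehydrogenase of the subfamily (chromosome 15, 101417919 to 101456831, plus strand), was not called. Its level was 54.78, 10.63 and 2.59 TPM in CTRL_CM10 and 2.88, 3.58 and 9.30 TPM in CM10. The groups overlapped, since the lowest control lay under every CM10 library, and the log2 fold change was −1.22 (SE 1.02, adjusted p = 0.3399). ALDH1A2, known in the mouse as the retinoic acid source of the early embryo (chromosome 15, 58245622 to 58790065, minus strand), was at 0.28, 3.82 and 0 TPM in CTRL_CM10 and at 0.64, 0 and 0 TPM in CM10. Only 1 of these 6 libraries was above 1 TPM.

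The 3 ALDH1A genes together summed to 165.2, 124.7 and 174.5 TPM in CTRL_CM10 and to 10.47, 14.72 and 21.97 TPM in CM10. ALDH1A1 supplied 66.66%, 88.41% and 98.52% of that sum in the controls and 66.38%, 75.68% and 57.67% in CM10. ALDH1A1 was thus the leading transcript of the subfamily in all 6 libraries of the CM10 table, at a level that differed between the groups.

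ALDH1B1 and ALDH2 are mitochondrial enzymes that oxidise acetaldehyde, and ALDH2 does most of this work during ethanol breakdown. ALDH1B1 (chromosome 9, 38392699 to 38398658, plus strand) stood at 20.68, 2.39 and 4.53 TPM in CTRL_CM10 and at 42.12, 61.54 and 63.49 TPM in CM10. All 3 CM10 libraries were above all 3 controls, and the gene rose by a log2 fold change of 2.91 (SE 0.96, adjusted p = 0.03022). ALDH2 (chromosome 12, 112204691 to 112255336, plus strand) stood at 43.78, 10.78 and 20.56 TPM in CTRL_CM10 and at 164.6, 232.7 and 252.2 TPM in CM10. Again the groups did not overlap, and ALDH2 rose by 3.25 (SE 1.01, adjusted p = 0.02415). Both calls were lost in some fits that leave out a library, while the fold changes stayed near their size. ALDH1B1 was not called without CM10 replicate 2 (2.83, adjusted p = 0.1012), CM10 replicate 3 (2.81, adjusted p = 0.07315), CTRL_CM10 replicate 2 (2.35, adjusted p = 0.06803) or CTRL_CM10 replicate 3 (2.70, adjusted p = 0.1186). ALDH2 was not called without CM10 replicate 2 (3.19, adjusted p = 0.1026), CM10 replicate 3 (3.13, adjusted p = 0.06004) or CTRL_CM10 replicate 3 (3.22, adjusted p = 0.09498). The share of all genes called in these fits was 10% to 21.9%.

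ALDH5A1 and ALDH6A1 are mitochondrial enzymes with a fixed place in metabolism. ALDH5A1, succinic semialdehyde dehydrogenase, completes the breakdown of GABA. ALDH6A1, methylmalonate semialdehyde dehydrogenase, acts in the breakdown of valine and of pyrimidines. ALDH5A1 (chromosome 6, 24495095 to 24537435, plus strand) was at 5.34, 1.24 and 3.00 TPM in CTRL_CM10 and at 63.06, 51.42 and 67.14 TPM in CM10. Its mean was 3.19 ± 2.06 TPM in the controls and 60.5 ± 8.16 TPM in CM10 (SD, n = 3 each), with no overlap and a log2 fold change of 3.99 (SE 0.89, adjusted p = 0.004838).

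ALDH6A1 (chromosome 14, 74523550 to 74551195, minus strand) changed most. It was at 138.7, 8.83 and 28.72 TPM in CTRL_CM10 and at 1593, 2699 and 1998 TPM in CM10. The lowest CM10 library was more than the sum of the 3 controls, and the log2 fold change was 5.90 (SE 1.28, adjusted p = 0.004426), higher than that of 98.23% of all genes tested. In CM10 libraries ALDH6A1 ranked 100, 59 and 84 from the top among all 18665 genes, against 730, 3049 and 2038 in the controls. ALDH5A1 and ALDH6A1 were called in all 12 alternative fits that kept them, with log2 fold changes of 3.30 to 4.65 and of 4.99 to 6.91. Their highest limma adjusted p in these fits was 0.04155 and 0.04969. The fit without genes that hold a high-copy stretch leaves both genes out, so it gives no value for them.

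ALDH3A1 and ALDH3A2 lie near each other on chromosome 17 (19641297 to 19652256, minus strand, and 19551449 to 19589073, plus strand). ALDH3A1 oxidises medium-chain and aromatic aldehydes and is abundant in cornea and stomach. ALDH3A2 is the fatty aldehyde dehydrogenase of the endoplasmic reticulum. ALDH3A1 was at 0, 23.72 and 19.62 TPM in CTRL_CM10 and at 3.14, 11.01 and 8.14 TPM in CM10. The CM10 values lay between the lowest and the other 2 controls, and the log2 fold change of −0.06 (SE 1.12, adjusted p = 0.9705) turned positive under several settings. ALDH3A2 was at 8.92, 18.69 and 18.69 TPM in CTRL_CM10 and at 6.34, 1.54 and 1.07 TPM in CM10. All CM10 libraries were below all controls, but the log2 fold change of −2.21 (SE 0.90, adjusted p = 0.06499) was not called. It was called without CM10 replicate 1 (−2.77, adjusted p = 0.02231). ALDH3A2 is the member with a high-copy stretch that was not higher in CM10.

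ALDH1L1, the cytosolic formyltetrahydrofolate dehydrogenase of folate metabolism (chromosome 3, 125822405 to 125916837, minus strand), was listed at 0, 0 and 1.99 TPM in CTRL_CM10 and at 0 in all 3 CM10 libraries. No fold change is given, since the CM10 group was at 0 throughout.

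Without overlap between the groups, 4 of the 8 members tested were higher and 2 were lower in CM10. Among all genes tested 18.5% were higher and 28.9% lower in this sense. The order of the members changed with the exposure. In CTRL_CM10 the order of mean TPM was ALDH1A1, ALDH6A1, ALDH2, ALDH1A3, ALDH3A2, ALDH3A1, ALDH1B1, ALDH5A1, ALDH1A2 and ALDH1L1, and the ranges of all neighbours in it overlapped. In CM10 it was ALDH6A1, ALDH2, ALDH5A1, ALDH1B1, ALDH1A1, ALDH3A1, ALDH1A3, ALDH3A2, ALDH1A2 and ALDH1L1. There ALDH6A1 lay apart from ALDH2, and ALDH2 from ALDH5A1. ALDH5A1 and ALDH1B1 overlapped and lay apart from ALDH1A1, and the values of ALDH1A1, ALDH3A1, ALDH1A3 and ALDH3A2 overlapped from one to the next.

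**Figure D2:**
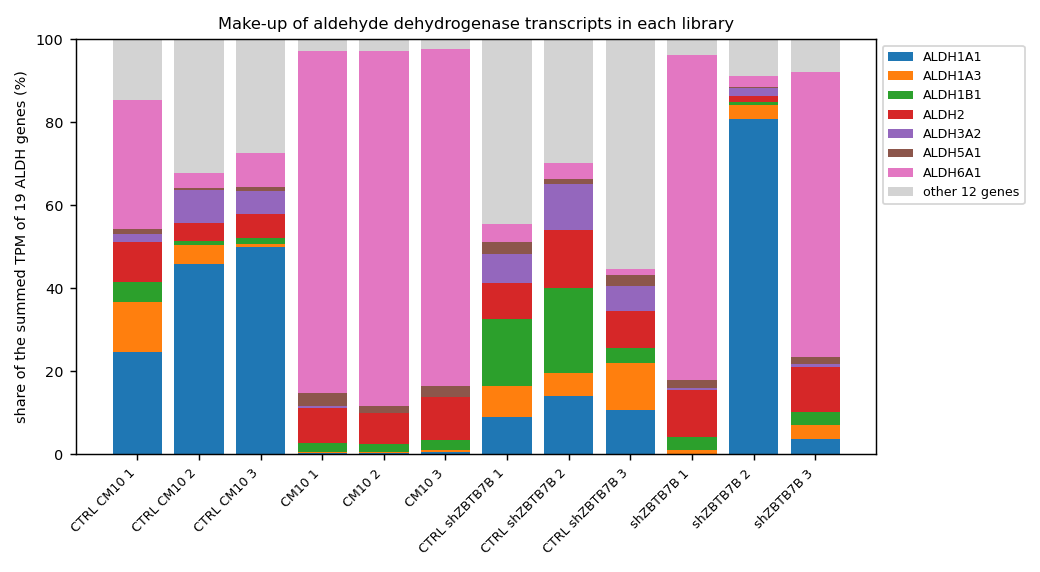
Share of the summed TPM of all 19 aldehyde dehydrogenases (vertical axis, percent) in each of the 12 libraries. Several members are drawn singly, and the other 12 genes are pooled in grey. The pooled genes are not all of small share. In CTRL_shZBTB7B replicate 3, ALDH9A1 (41.39 TPM) and ALDH16A1 (39.01 TPM) were above ALDH1A3 (33.54 TPM), the highest member there. ALDH6A1 (pink) takes 81.22% to 85.68% in CM10 libraries and 78.27% and 68.89% in shZBTB7B replicates 1 and 3, and ALDH1A1 (blue) takes 80.81% in shZBTB7B replicate 2.

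Set against the whole family, the change was one of make-up as well as of summed TPM. Because TPM has a fixed total in each library, the sum is a share and not an absolute amount. The 19 aldehyde dehydrogenases summed to 448.3, 240.1 and 344.1 TPM in CTRL_CM10 and to 1930, 3151 and 2460 TPM in CM10. ALDH1A1 supplied 24.56%, 45.91% and 49.97% of the family in the controls and 0.36%, 0.35% and 0.52% in CM10. ALDH6A1 supplied 30.95%, 3.68% and 8.35% in the controls and 82.52%, 85.68% and 81.22% in CM10. The larger family total in CM10 is thus mostly ALDH6A1, and the plot of shares by library shows the same split.

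The high-copy stretch and the direction of change ran together in the CM10 table. Of the 5 members with a stretch, all were tested, 4 rose and ALDH3A2 was not called. Of the 5 without one, 3 were tested, 0 rose, ALDH1A1 fell, and ALDH1A3 and ALDH3A1 were not called. Across all 19 aldehyde dehydrogenases, 8 with a stretch were tested, of which 4 rose and 0 fell, and 6 without were tested, of which 0 rose and 2 fell. The division was also seen over all genes. Of the genes called higher with CM10 that had been searched, 88.47% of 1648 hold a stretch, against 18.73% of 2275 called lower and 38.99% of 12288 tested. The median log2 fold change was 0.74 for all tested genes with a stretch and −1.60 for those without. The part of the stretch in the levels of ALDH1B1, ALDH2, ALDH5A1 and ALDH6A1 was not tested.

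**Figure D3:**
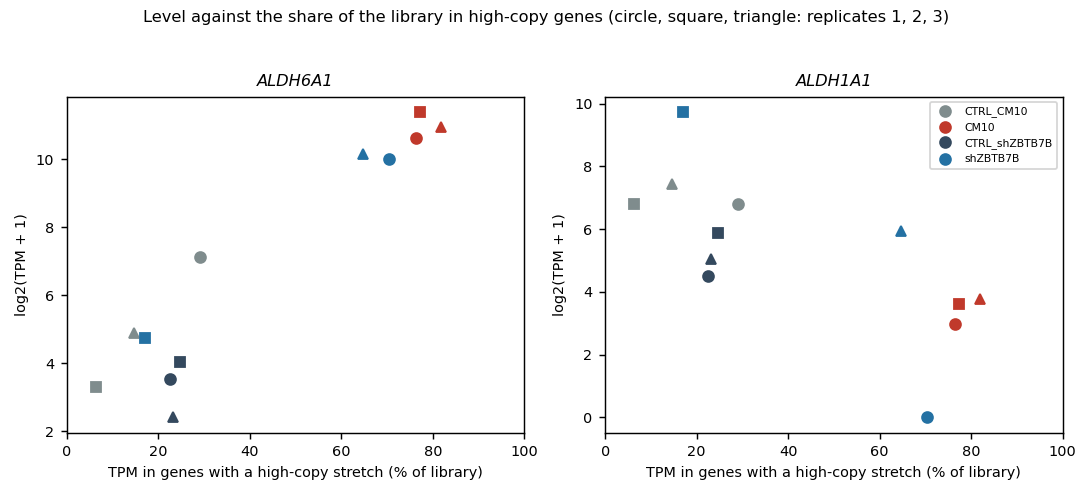
Level of ALDH6A1 (left) and ALDH1A1 (right), as log2(TPM + 1), against the percentage of all TPM of the library that falls in genes with a high-copy stretch, for 12 libraries in 4 groups (circle, square and triangle for replicates 1, 2 and 3). The 5 libraries with a share of 64.72% or more are those with ALDH6A1 at 1034 TPM or above, while ALDH1A1 spans 0 to 60.38 TPM in them.

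The second question was whether knockdown of ZBTB7B, which the study places downstream of ALDH1A1, moved the same genes. Of the 8 members tested, 0 were called at a limma adjusted p under 0.05, and 1 had an unadjusted p under 0.05. Of all 13665 genes tested 11.7% were called, and 5317 had an unadjusted p under 0.05. The median log2 fold change of the members was 0.67 and that of all genes was −1.45. The all-gene share depended on the setting. It was 0% by limma after quantile normalization, after median centring, without the MTRNR2L genes, with no filter on low values and when any single library other than shZBTB7B replicate 2 was left out, although 3031 to 5807 genes had an unadjusted p under 0.05 in these fits.

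ALDH6A1 came closest to a call. It was at 10.56, 15.46 and 4.33 TPM in CTRL_shZBTB7B and at 1034, 26.00 and 1134 TPM in shZBTB7B. Each hairpin library was above each control, as was the case for 3.02% of all genes tested. Replicate 2, at 26.00 TPM against a highest control of 15.46 TPM, lay far closer to the controls than replicates 1 and 3. The log2 fold change was 4.98 (SE 1.40, adjusted p = 0.05218), higher than that of 99.09% of genes tested. Without shZBTB7B replicate 2 it was 6.75 (SE 0.59, adjusted p = 0.002267). ALDH6A1 supplied 78.27%, 2.46% and 68.89% of the family's TPM in shZBTB7B and 1.45% to 4.30% in its controls.

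ALDH1A1 was at 21.96, 57.76 and 31.82 TPM in CTRL_shZBTB7B and at 0, 855.1 and 60.38 TPM in shZBTB7B. The 3 hairpin libraries thus held both the lowest and the highest ALDH1A1 value of all 12 libraries, and the log2 fold change of 0.08 (SE 2.06, adjusted p = 0.9781) has no firm direction. It was −2.17 (adjusted p = 0.3297) without replicate 2. The gastric chief and parietal cell markers ranked the 3 hairpin libraries in the same order as ALDH1A1. Their sum was 0, 82731 and 2123 TPM in shZBTB7B replicates 1 to 3, with all 8 genes at 0 in replicate 1 and none at 0 in replicate 2. In CTRL_shZBTB7B it was 1039, 91.10 and 5.99 TPM with 0 to 3 genes at 0, in CTRL_CM10 85.48, 4386 and 83624 TPM with 1 to 3 genes at 0, and in CM10 676.9, 202.0 and 4532 TPM with 0 or 1 gene at 0. CTRL_CM10 replicate 3, which had the highest ALDH1A1 level of its group, also had its highest gastric sum, whereas CTRL_CM10 replicates 1 and 2 had nearly equal ALDH1A1 levels at sums of 85.48 and 4386 TPM. The order was not particular to chief and parietal cells. Smooth muscle sums were 204.2, 494.3 and 266.1 TPM in shZBTB7B replicates 1 to 3. Those of fibroblasts and endothelium were 55.14, 327.8 and 98.20 TPM. Gastric surface and neck cell sums (189.0, 1665 and 4260 TPM) and the other marker sums did not follow ALDH1A1. The part of any of these cells in the ALDH1A1 values was not tested.

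ALDH2 and ALDH5A1 showed a like break between hairpin libraries. ALDH2 was at 21.31, 57.16 and 27.00 TPM in CTRL_shZBTB7B and at 149.0, 15.55 and 178.5 TPM in shZBTB7B (log2 fold change 1.21, SE 1.02, adjusted p = 0.3771). ALDH5A1 was at 7.44, 5.53 and 8.03 TPM in the controls and at 27.06, 4.77 and 24.45 TPM in shZBTB7B (1.02, SE 0.89, adjusted p = 0.3944). For both genes replicates 1 and 3 were above every control and replicate 2 below every control. Without replicate 2 both were called, ALDH2 at 2.31 (SE 0.55, adjusted p = 0.02051) and ALDH5A1 at 1.75 (SE 0.45, adjusted p = 0.02594). In that fit 3 of 8 members were called, all as higher, and 50.4% of all genes were called.

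ALDH1B1 was at 39.62, 84.10 and 10.76 TPM in CTRL_shZBTB7B and at 40.84, 7.45 and 54.16 TPM in shZBTB7B, with overlapping groups (−0.35, SE 1.04, adjusted p = 0.8059). In these controls its mean of 44.8 ± 36.9 TPM (SD, n = 3) was the highest of all members, although its range overlapped that of ALDH1A1. ALDH1A3 was at 18.25, 22.71 and 33.54 TPM in the controls and at 14.64, 34.80 and 54.18 TPM in shZBTB7B (0.32, SE 0.77, adjusted p = 0.758). Its values surrounded those of the controls. ALDH3A1 was at 1.72, 0.53 and 6.16 TPM in the controls and at 0, 20.08 and 18.09 TPM in shZBTB7B (1.25, SE 1.27, adjusted p = 0.4593). ALDH3A2 was at 17.16, 45.92 and 17.54 TPM in the controls and at 5.22, 20.15 and 11.88 TPM in shZBTB7B (−1.07, SE 0.83, adjusted p = 0.3388). Only replicate 2 of the hairpin kept ALDH3A2 within the control range. ALDH1A2 was at 0.26, 2.63 and 0.07 TPM in the controls and at 0, 0.46 and 0 TPM in shZBTB7B. ALDH1L1 was at 0.23, 9.60 and 0.70 TPM in the controls and at 0, 4.52 and 0 TPM in shZBTB7B, so that replicate 2 of each group held the highest value.

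**Figure D4:**
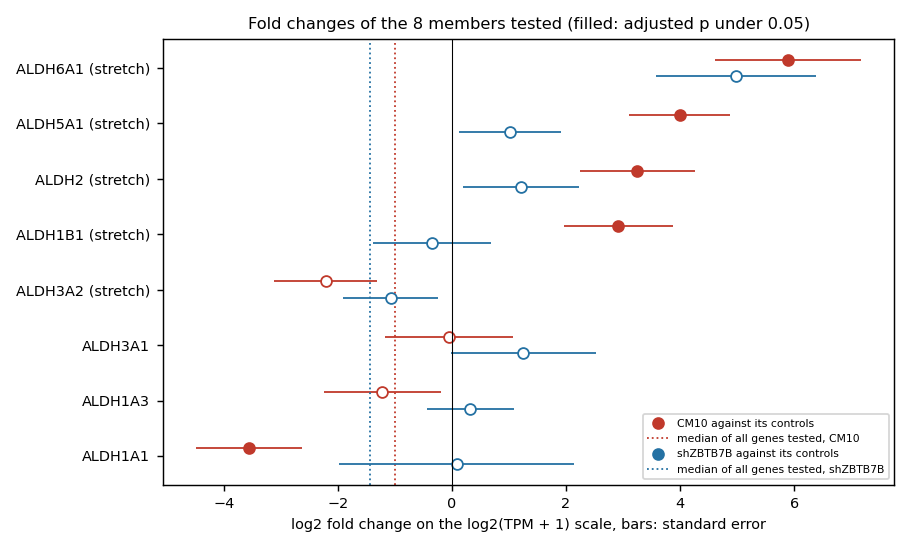
Log2 fold change on the log2(TPM + 1) scale (horizontal axis, bars one standard error) of the 8 members tested, for CM10 (red) and shZBTB7B (blue) against their own controls, with filled points for genes called and dotted lines for the median of all genes tested (−1.004 and −1.45). ALDH6A1 lies far to the right in both comparisons (5.90 and 4.98), and ALDH1A1 lies at −3.55 with CM10 and at 0.08 with a wide bar for the hairpin.

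The 2 effects were then compared directly, since a call in one table and none in the other is no difference. In the limma fit over 12 libraries, 0 of the 8 members and 0 (0%) of the 11937 genes kept in both tables were called, while 2 of the members and 1133 of the genes had an unadjusted p under 0.05. The 2 members were ALDH5A1, whose effect was larger with CM10 by 2.98 (SE 1.18, adjusted p = 0.4821), and ALDH1B1, larger by 3.27 (SE 1.45, adjusted p = 0.4973). For ALDH1A1 the difference of −3.64 (SE 2.26, adjusted p = 0.5887) was large but so was its error. For ALDH6A1 the difference was 0.92 (SE 1.87, adjusted p = 0.8865), close to the median difference of 0.66 over all genes. Without shZBTB7B replicate 2 the difference shrank to −1.38 for ALDH1A1 (SE 1.67, adjusted p = 0.7413). It changed sign for ALDH6A1, to −0.86 (SE 1.40, adjusted p = 0.8153). For ALDH5A1 and ALDH1B1 it was then 2.24 and 2.43.

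Over the 12 libraries the members with the most similar log2(TPM + 1) profiles were ALDH2 and ALDH5A1 (Pearson r = 0.93), ALDH2 and ALDH6A1 (0.92), ALDH5A1 and ALDH6A1 (0.88) and ALDH1B1 and ALDH2 (0.81). The most opposed were ALDH3A2 and ALDH6A1 (−0.83), although both hold a high-copy stretch. ALDH1A1 ran against ALDH5A1 (−0.69), ALDH2 (−0.67) and ALDH6A1 (−0.56). These values describe 12 libraries that share 4 group means and the fixed TPM total, and carry no test. Among 11936 genes kept in both tables, those whose profile was most like that of ALDH1A1 were GATA6, a transcription factor of endoderm (r = 0.90), PPP1R16A, a regulatory subunit of a protein phosphatase (0.88), PEX7, a peroxisomal import receptor (0.88), MT1E, a metallothionein (0.87), and PBLD (0.86). Without shZBTB7B replicate 2 their r was 0.83 to 0.86.

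Of the 9 further aldehyde dehydrogenases, 6 were tested with CM10, 0 rose and 1 fell, where 31.9% of all genes were called. Their median log2 fold change was −0.69, against −1.004 over all genes. The gene that fell was ALDH18A1, the enzyme that starts proline synthesis from glutamate, at 10.46, 10.86 and 15.83 TPM in CTRL_CM10 and at 2.39, 0 and 2.56 TPM in CM10 (−2.52, SE 0.88, adjusted p = 0.03852). ALDH3B1, which also holds a high-copy stretch, was at 8.15, 8.89 and 10.91 TPM in CTRL_CM10 and at 21.38, 58.40 and 28.65 TPM in CM10 without a call (1.73, SE 0.90, adjusted p = 0.1311). With the hairpin 7 were tested and 0 called by limma, with 2 at an unadjusted p under 0.05, where 11.7% of all genes were called.

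The neighbours of the members in their pathways were read from the same fits, in which 13.6% of all genes were called higher and 18.3% lower with CM10, with a median of −1.004, and 11.7% were called with the hairpin. Alcohol and retinol dehydrogenases interconvert alcohols and aldehydes, among them aldehydes that these enzymes oxidise. Which way each of them works in these samples was not tested. Of 10 tested with CM10, 2 rose and 2 fell. RDH13 (log2 fold change 5.66, adjusted p = 0.003444) and RDH10 (2.97, adjusted p = 0.02116), the latter the enzyme that supplies retinaldehyde in the mouse embryo, rose. ADH1C, a class I alcohol dehydrogenase (−5.18, adjusted p = 0.003444), and DHRS4 (−3.46, adjusted p = 0.01685) fell. RDH13, RDH10 and ADH1C all hold a high-copy stretch, so genes with one were found in both directions. The list's median was −1.94.

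Downstream of ALDH1A1, among the genes that bind, clear or sense retinoic acid, 7 were tested with CM10, 0 rose and 3 fell (18.3% of all genes fell), with a median of −2.63. The 3 were the retinoic acid receptor RARG (−2.63, adjusted p = 0.03819), its partner receptor RXRB (−2.65, adjusted p = 0.02255) and the binding protein CRABP2 (−3.04, adjusted p = 0.04571). All 3 lack a high-copy stretch, and the median of all tested genes without one was −1.60. With the hairpin, 1 of 9 was called, and this was RARG again (−3.48, adjusted p = 0.04456), while among the alcohol and retinol dehydrogenases 1 of 11 was called, RDH5 (−3.62, adjusted p = 0.03836). Both hairpin calls are absent from the fits named above in which 0% of all genes were called.

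The partners of ALDH5A1 and ALDH6A1 in the GABA shunt and in the breakdown of branched-chain amino acids were mostly not called. Of 19 tested with CM10, 1 rose and 3 fell, with a median of −0.59. DBT, a subunit of the branched-chain ketoacid dehydrogenase, rose (3.08, adjusted p = 0.0233) and holds a stretch. BCKDHA, another subunit of that complex, also holds a stretch but fell (−3.05, adjusted p = 0.02183). ACAD8 (−2.46, adjusted p = 0.02182) and HIBADH (−3.05, adjusted p = 0.03046), which hold no stretch, fell as well. HIBADH is the enzyme that makes the substrate of ALDH6A1. Among 13 folate enzymes tested around ALDH1L1, 0 rose and 2 fell, TYMS (−2.69, adjusted p = 0.009816) and SHMT2 (−2.94, adjusted p = 0.02809), with a median of −0.53. With the hairpin 0 of 19 and 0 of 13 were called.

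The promoters of the 2 members that moved furthest in opposite directions with CM10, ALDH1A1 and ALDH6A1, are shown to set them side by side. RefSeq windows on GRCh38.p14, each 250 bases before and 50 bases after a start, were found for 8 of the 10 members and not for ALDH2 and ALDH3A1. Capitals mark the motifs searched on both strands, namely the TATA box in the form TATAAA, the CCAAT box in the form CCAAT, the GC box in the form GGGCGG, and a nuclear receptor half-site in the form AGGTCA. None of these motifs contains another.
ALDH1A1, chr9:72953004-72953303, minus strand: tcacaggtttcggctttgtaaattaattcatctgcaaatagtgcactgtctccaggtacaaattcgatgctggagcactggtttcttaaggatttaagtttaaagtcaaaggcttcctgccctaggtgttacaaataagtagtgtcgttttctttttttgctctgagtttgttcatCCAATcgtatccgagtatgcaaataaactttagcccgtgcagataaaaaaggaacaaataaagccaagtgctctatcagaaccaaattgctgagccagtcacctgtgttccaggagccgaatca
ALDH6A1, chr14:74084404-74084703, minus strand: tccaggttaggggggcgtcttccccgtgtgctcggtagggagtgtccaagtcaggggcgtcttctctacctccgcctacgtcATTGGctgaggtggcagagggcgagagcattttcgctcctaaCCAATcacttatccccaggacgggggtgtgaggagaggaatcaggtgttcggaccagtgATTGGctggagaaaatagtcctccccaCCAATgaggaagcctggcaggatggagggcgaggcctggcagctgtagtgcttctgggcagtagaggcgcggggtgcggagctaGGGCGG
The ALDH1A1 window has a GC content of 40.3% and holds 1 CCAAT box and none of the other motifs. The ALDH6A1 window has a GC content of 61.0% and holds 4 CCAAT boxes and 1 GC box. Over 35116 RefSeq windows of the same length the median GC content is 58.7%, and the CCAAT box is found in 34.61%, the GC box in 44.95%, the half-site in 13.83% and the TATA box in 11.53%. Among the other members the half-site and the TATA box were each found once, in 1 window of ALDH1L1, and the GC box was found 6 times in ALDH1A3. The matches are descriptions of the letters in these windows.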

How the data were processed

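Total RNA was extracted with Trizol and libraries were made after probe capture, per the labels. Per the study's methods, reads were aligned with HISAT to hg19 and gene levels were estimated with RSEM, with versions not given in the sources used. The authors deposited 1 table per experiment, 2 in all, with 6 libraries each. The deposited values were taken as TPM from the methods and because every column sums to the same total, since the headers name no unit. All columns were matched to samples by name. limma 3.58.1 in R 4.3.3 (group as the only term, variance trend) was fitted to log2(TPM + 1) on each whole table, two-sided, with Benjamini-Hochberg adjustment over all genes tested, and to the difference between effects over 12 libraries. The members and gene lists, among them the 10 members and 5 pathway or family lists, were chosen with earlier results of these data known. All 10 members are described. Pathway genes were named where called, at most the 3 with the smallest p per direction and list, together with the 5 genes most like ALDH1A1. ALDH3B1 was named after its values were seen. The search for high-copy stretches was added after the data had been seen. It required at least 3 of each base in the 24 letters. Tables were prepared with Python 3.11.15 and pandas 2.3.3. Alternatives were quantile normalization, median centring, TPM rescaled without the MTRNR2L genes or, added later, without genes with a high-copy stretch, no filter on low values, a block for the replicate number, a pseudocount of 0.1, and single libraries left out in turn. The study's own thresholds (adjusted p under 0.001 and a log2 fold change above 1 in size) gave 0 genes in either comparison by limma, where 5972 (CM10) and 5317 (hairpin) had an unadjusted p under 0.05. The sequences of these stretches are not reported here.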

Additional observations from a re-analysis of the deposited data

How the results depend on the processing

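Of 198 alternative values for single members, 164 kept their direction and side of the threshold, 17 changed sign, 6 gained a call and 11 lost one. Signs changed only for genes that were not called. With CM10, ALDH3A1 was at 0.60 after median centring, 0.89 with a pseudocount of 0.1 and 1.89 with TPM rescaled without genes that hold a high-copy stretch, where ALDH1A3 was at 0.52. With the hairpin, ALDH1B1 was at 0.54 after quantile normalization and 0.84 after median centring, ALDH3A2 at 0.12 after median centring and ALDH1A1 at −0.99 with a pseudocount of 0.1. Leaving out each library gave −1.55 to 0.76 for ALDH3A1 with CM10, and with the hairpin −2.17 to 2.70 for ALDH1A1, −0.084 to 0.83 for ALDH1A3 and −1.13 to 0.48 for ALDH1B1. The number of members called with CM10 was 2 to 6 over these fits. It was 2 without CM10 replicate 2 or without CTRL_CM10 replicate 3 and 3 without CM10 replicate 3. It was 0 of 3 tested once genes with a high-copy stretch were left out, when 2.35% of all genes were called. ALDH1B1 also lost its call with a pseudocount of 0.1 (adjusted p = 0.05957), and ALDH3A2 gained one without the MTRNR2L genes (−3.14, adjusted p = 0.01516). With the hairpin 0 to 3 members were called over the fits that leave out a library, 3 of them without shZBTB7B replicate 2. The difference between the effects had 0 called members in every fit. Median centring and quantile normalization remove most of the shift of all genes, whose median became −0.35 and −0.27 with CM10 and −0.25 and −0.23 with the hairpin. After quantile normalization 33.4% of all genes were called with CM10. Libraries with the same replicate number did not deviate together, with r between −0.08 and 0.03. With the replicate block, 1 member in place of 0 was called for the hairpin, ALDH6A1 (adjusted p = 0.0466), and 10.2% of all genes were called. The cause of these changes was not tested. Sequencing depth is not recoverable from TPM, and a 0 may stand for a failed estimate. With 3 libraries a group the precision of each member is set by the spread between libraries.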
